A study of Mus musculus with 21 samples.

Results

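The genes described here are the subunits of the transcription factor NF-κB and the inhibitors and related proteins that its own activity switches on: Nfkb1, Nfkb2, Rel, Rela, Relb, Nfkbia, Nfkbie, Nfkbiz, Tnfaip3 and Bcl3. They were chosen by symbol, with earlier results of these data known, and all 10 were found among the 24391 genes of the count files. RNA was taken from skin, liver and brain of newborn (P0) C57BL/6 mice, and 1 library was made per mouse and tissue. The KI group held 2 mice heterozygous for Jak1 H595D together with the silent changes I596I and Y597Y (Jak1 H595D/+;I596I/+;Y597Y/+), and the WT group held 5 mice with unedited Jak1. JAK1 is a tyrosine kinase that cytokine receptors use to activate STAT factors. The study made the allele with CRISPR/Cas9 and a single-stranded donor DNA on a C57BL/6J background, and KI mice descended from a mosaic male. Sex and litter were not given.

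NF-κB is a family of dimers built from p50 (Nfkb1), p52 (Nfkb2), RelA (Rela), c-Rel (Rel) and RelB (Relb). Inhibitors of the IκB family, among them IκBα (Nfkbia) and IκBε (Nfkbie), hold the dimers in the cytoplasm until signals from cytokine receptors and Toll-like receptors bring about their degradation. The freed dimers then raise the transcription of their own brakes, which include both inhibitors and the ubiquitin-editing enzyme A20 (Tnfaip3). They also raise that of the nuclear IκB proteins IκBζ (Nfkbiz) and Bcl-3 (Bcl3). These are listed with the inhibitors here by family, but they act on NF-κB target genes in the nucleus and are not simply brakes. The transcripts of all these genes are widely used as a readout of the pathway.

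Each library held between 26549326 and 38388133 counts on genes, and levels are given as CPM, the counts of a gene scaled to a common library total, after scaling by the trimmed mean of M values (TMM). Marker genes matched the tissue labels: 7 hepatocyte markers summed to 186229 to 237281 CPM in the liver, 7 neuron markers to 6131 to 7639 CPM in the brain, and 7 keratinocyte markers to 805 to 14680 CPM in the skin. The keratinocyte sum was lowest in the skin of KI 2 (805 CPM) and WT 5 (1328 CPM). In the brain libraries, the 7 hepatocyte markers, which include Ttr, summed to between 30.4 CPM (WT 2) and 2102 CPM (WT 5). The KI brains held 720 and 797 CPM. These sums were not split by gene, and whether they stand for liver RNA was not tested. Their part in the brain values was not tested either. The brain library of WT 5 was the smallest of the 21 and held the least Jak1 (93.9 CPM, against 131 to 154 CPM in the other 6 brain libraries). The Jak1 substitution cannot be seen in counts per gene. Jak1 itself did not pass the edgeR test in any tissue (Benjamini-Hochberg adjusted p from 0.125 to 0.999), and both KI libraries lay above all WT libraries in the liver and the skin. In these bulk samples, fewer cells of a type and less RNA per cell cannot be told apart.

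NF-κB sites are known in the promoters of several of its inhibitors, so the stretches upstream of the transcription starts were searched. The RefSeq promoter table (assembly GRCm38.p6) held windows for 7 of the 10 genes, Bcl3, Nfkb2, Nfkbia, Nfkbie, Rel, Rela and Tnfaip3. These genes had 10 windows of 300 bases. The NF-κB consensus was present on either strand in 8 of the 10, against 8.46% of 32851 windows of all genes. The 8 belonged to 6 of the 7 genes, all but Rela. Nfkb2 and Tnfaip3 had several windows each, and windows of Nfkb2 overlap, so the 10 are not independent. A share per gene was not computed for all genes. The palindromic motif of STAT factors, TTCNNNGAA, was in 1 of the 10 windows (Nfkb2), against 8.30% of all windows. The AP-1 motif TGANTCA, searched on both strands, was in 3 of the 10 (Nfkb2, Nfkbie and Tnfaip3), against 7.81%. A match is a description of letters and does not show binding. The 250 bases before the start are printed for Nfkb2, which differed between skin and liver, and for the inhibitor genes with a match in that stretch, in the direction of transcription and with the consensus matches in capitals. Where the table held several starts, the window lying farthest upstream is shown, and each stretch matched its chromosome of the NCBIM37 (mm9) genome at 1 place.
Nfkbia, chr12:56593635-56593884, minus strand: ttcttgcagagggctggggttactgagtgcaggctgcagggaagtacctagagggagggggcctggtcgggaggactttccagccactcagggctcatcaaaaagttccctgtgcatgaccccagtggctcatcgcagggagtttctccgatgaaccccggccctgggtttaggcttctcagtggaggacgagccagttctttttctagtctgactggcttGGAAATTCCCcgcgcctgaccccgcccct
Tnfaip3, chr10:18735217-18735466, minus strand: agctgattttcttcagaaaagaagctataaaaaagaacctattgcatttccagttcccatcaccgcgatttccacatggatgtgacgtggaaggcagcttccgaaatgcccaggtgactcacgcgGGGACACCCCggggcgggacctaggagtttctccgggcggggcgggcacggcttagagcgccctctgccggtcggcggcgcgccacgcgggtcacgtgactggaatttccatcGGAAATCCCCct
Nfkb2, chr19:46378977-46379226, plus strand: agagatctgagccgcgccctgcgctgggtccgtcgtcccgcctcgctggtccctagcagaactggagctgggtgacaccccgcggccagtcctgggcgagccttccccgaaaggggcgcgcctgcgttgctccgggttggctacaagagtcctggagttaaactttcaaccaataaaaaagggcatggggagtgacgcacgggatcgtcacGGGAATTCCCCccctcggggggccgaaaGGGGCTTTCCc
Nfkbie, chr17:45692399-45692648, plus strand: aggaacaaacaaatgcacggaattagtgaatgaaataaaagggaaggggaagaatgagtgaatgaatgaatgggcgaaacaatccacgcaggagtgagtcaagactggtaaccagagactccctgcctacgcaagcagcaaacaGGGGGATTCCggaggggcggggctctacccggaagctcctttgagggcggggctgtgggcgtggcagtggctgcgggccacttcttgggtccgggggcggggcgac
The match in Nfkbia began 29 bases before the start and that in Nfkbie 106 bases before it. Tnfaip3 carried 2 matches, which began 125 and 12 bases before the start. Nfkb2 carried 3, of which the pair 39 and 38 bases before the start overlap and the last began 11 bases before it. The other Tnfaip3 window held no match in these 250 bases. Rel carried a pair of overlapping matches 92 and 91 bases before its start. Bcl3 is not printed because its match lay within the 50 bases after the start.

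The WT mice gave the baseline of each gene. Per kilobase of exon, the order of levels began alike in all 3 tissues, with Nfkbia at the top, then Rela and then Nfkb1. In the brain, Nfkbia stood at 14.0 ± 1.01 CPM per kb (SD, n = 5), Rela at 8.98 ± 1.65 and Nfkb1 at 3.50 ± 0.754, and the ranges of these 3 genes did not overlap. The same 3 were also apart from each other in the liver (42.4 ± 13.3, 24.1 ± 2.79 and 14.9 ± 0.760 CPM per kb) and in the skin (52.7 ± 17.5, 24.9 ± 1.13 and 15.7 ± 1.02 CPM per kb). The lower part of the order differed between tissues. Nfkb2 came next in the liver (6.28 ± 0.362 CPM per kb) and in the skin (11.4 ± 0.932), but after Nfkbie and Relb in the brain (0.771 ± 0.232), and Rel, the c-Rel subunit of lymphoid and myeloid cells, came last in all 3. Among the 9 pairs of neighbours in the order, the WT ranges overlapped in 6 pairs of the brain, 5 of the liver and 4 of the skin, so that most of the lower genes cannot be ranked against each other.

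All 10 genes were lower in the brain than in either of the other tissues. In edgeR's quasi-likelihood test on the 15 WT libraries, with a Benjamini-Hochberg adjusted p under 0.1 as the level for a call, 10 of 10 were called higher in the liver than in the brain (40.2% of all 17071 genes were called higher, 43.3% lower) and 10 of 10 higher in the skin than in the brain (40.3% of all genes higher, 39.1% lower). The median log2 difference of the 10 genes was 2.20 for liver against brain and 1.96 for skin against brain, while the median of all genes was -0.06 and 0.02. These contrasts share libraries and are not independent of each other. With total counts in place of TMM, the median of all genes moved to -0.85 for liver against brain, and 8 of the 10 genes were still called higher (26.6% of all genes), Relb and Nfkbie being lost. Without WT 5, all 10 were called higher in the liver and in the skin than in the brain.

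**Figure D1:**
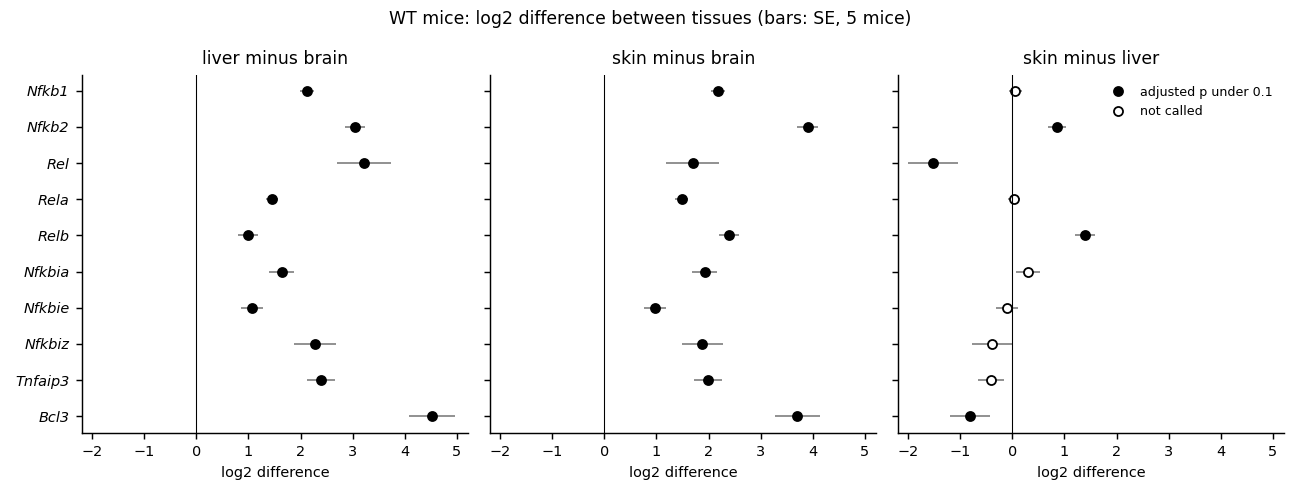
Log2 difference between tissues in the 5 WT mice (horizontal axis) for each gene (vertical axis), with SE as bars and filled points for an adjusted p under 0.1 in edgeR. All 10 points lie right of 0 for liver and skin against brain, and points lie on both sides of 0 for skin against liver.

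Bcl3, a nuclear IκB protein that works with p50 and p52 dimers, showed the widest difference between liver and brain. In the brain of WT 1 to 5 it stood at 0.174, 0.585, 0.361, 1.10 and 1.02 CPM, and in the liver at 13.5, 16.9, 19.1, 8.83 and 14.7 CPM. Every liver value was above every brain value, and the log2 difference was 4.52 (SE 0.45, edgeR adjusted p = 1.13e-07). Bcl3 has an antisense gene, Gm16175, whose exons overlap its own, and unstranded counts cannot tell the reads of both apart. The count files set aside reads as ambiguous, so reads of the shared stretch may be missing from Bcl3, which was not examined. Rel was at 0.373, 0.772, 0.490, 0.757 and 0.0328 CPM in the brain, where the value of WT 5 was a single count, and at 3.44, 5.86, 3.96, 6.15 and 3.12 CPM in the liver. The groups did not overlap, and the log2 difference was 3.22 (SE 0.52, edgeR adjusted p = 3.04e-05).

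Nfkb2 and Relb, which together form the dimer of the non-canonical pathway downstream of lymphotoxin and CD40 receptors, set the skin apart. Nfkb2 stood at 2.56, 3.59, 2.84, 1.56 and 2.13 CPM in the WT brain, at 20.3, 22.4, 19.3, 20.0 and 21.3 CPM in the liver, and at 36.4, 36.0, 38.1, 34.9 and 42.7 CPM in the skin. The 3 tissues did not overlap, and the skin exceeded the liver by 0.85 on the log2 scale (SE 0.17, edgeR adjusted p = 3.54e-04). Relb stood at 2.86, 3.70, 2.97, 3.15 and 4.29 CPM in the brain, 5.94, 7.11, 4.82, 9.05 and 6.15 CPM in the liver, and 16.3, 16.5, 18.3, 18.0 and 19.0 CPM in the skin. Again no values of different tissues overlapped, and the skin exceeded the liver by 1.40 (SE 0.19, edgeR adjusted p = 5.77e-06). The ratio of Nfkb2 to Nfkb1, the genes of p52 and p50, was 0.228 ± 0.0709 in WT brain, 0.420 ± 0.0197 in WT liver and 0.729 ± 0.0699 in WT skin (CPM per kb, SD, n = 5), and the ranges were 0.107 to 0.289, 0.396 to 0.449 and 0.645 to 0.826. Exons of Nfkb2 overlap those of Psd on the opposite strand, which unstranded counts cannot separate. Reads of the shared stretch may have been set aside as ambiguous and so be missing from Nfkb2, which was not examined.

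Between skin and liver the set was divided. Nfkb2 and Relb were the 2 genes called higher in the skin (39.8% of all genes were), Rel and Bcl3 were the 2 called lower (32.5% of all genes), and 6 were not called. Rel was lower in the skin, at 2.27, 1.37, 1.63, 1.90 and 0.736 CPM, than in every WT liver, with a log2 difference of -1.52 (SE 0.48, edgeR adjusted p = 0.0109). Bcl3 stood at 4.49, 9.76, 9.13, 6.00 and 12.4 CPM in the skin, a range that overlapped the liver, and differed by -0.82 (SE 0.38, edgeR adjusted p = 0.0696, from 0.0388 to 0.810 over the alternatives). The call of Bcl3 was lost without WT 1 (-0.69), WT 2 (-0.81) or WT 3 (-0.74). Rela (0.03, SE 0.12) and Nfkb1 (0.06, SE 0.13), the subunits of the common p65 and p50 dimer, were close to 0 between the 2 tissues with small errors. With the mouse as a block, Nfkbiz (-0.52, edgeR adjusted p = 0.0647) and Tnfaip3 (-0.46, edgeR adjusted p = 0.0489) were also called lower in the skin, which makes 6 calls in place of 4 (33.1% of all genes were lower). With total counts in place of TMM, the median of all genes moved from 0.10 to 0.81, the share of calls that were higher in the skin from 55.0% to 79.4%, and 6 of the 10 genes were called, all higher in the skin (65.3% of all genes). The direction of skin against liver thus depended on the scaling for Nfkbie, Nfkbiz and Tnfaip3. The study's methods give a lower RNA integrity for the skin than for the other samples, and the part of that difference in the tissue contrasts was not tested.

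In the liver and the skin, the highest WT level stood farther above the lowest, as a ratio, for Nfkbia, Nfkbiz and Tnfaip3 than for Nfkb1 and Rela. In the WT liver, Nfkbia varied from 45.9 to 89.5 CPM and Nfkbiz from 7.20 to 18.6 CPM, while Nfkb1 varied from 68.8 to 77.2 CPM and Rela from 57.0 to 75.8 CPM. Tnfaip3 stood at 19.5 ± 2.93 CPM there (SD, n = 5). In the WT skin, Nfkbia varied from 55.4 to 112 CPM, Nfkbiz from 4.48 to 18.8 CPM and Tnfaip3 from 9.85 to 20.4 CPM, while Nfkb1 varied from 69.6 to 81.6 CPM and Rela from 63.6 to 71.3 CPM. A wide ratio was not particular to these inhibitors. Rel varied from 3.12 to 6.15 CPM in the WT liver and from 0.736 to 2.27 CPM in the WT skin. Bcl3 varied from 8.83 to 19.1 CPM and from 4.49 to 12.4 CPM. Nfkb2 varied less, from 19.3 to 22.4 CPM and from 34.9 to 42.7 CPM. In the WT brain, Nfkbia varied from 19.6 to 23.5 CPM, a narrower ratio than for Nfkb1 (11.9 to 21.2 CPM) or Rela (20.8 to 32.0 CPM). Tnfaip3 varied there from 2.19 to 4.90 CPM, a wider ratio than for both subunits. Nfkbiz varied there from 1.87 to 3.18 CPM, a wider ratio than for Rela but not than for Nfkb1.

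**Figure D2:**
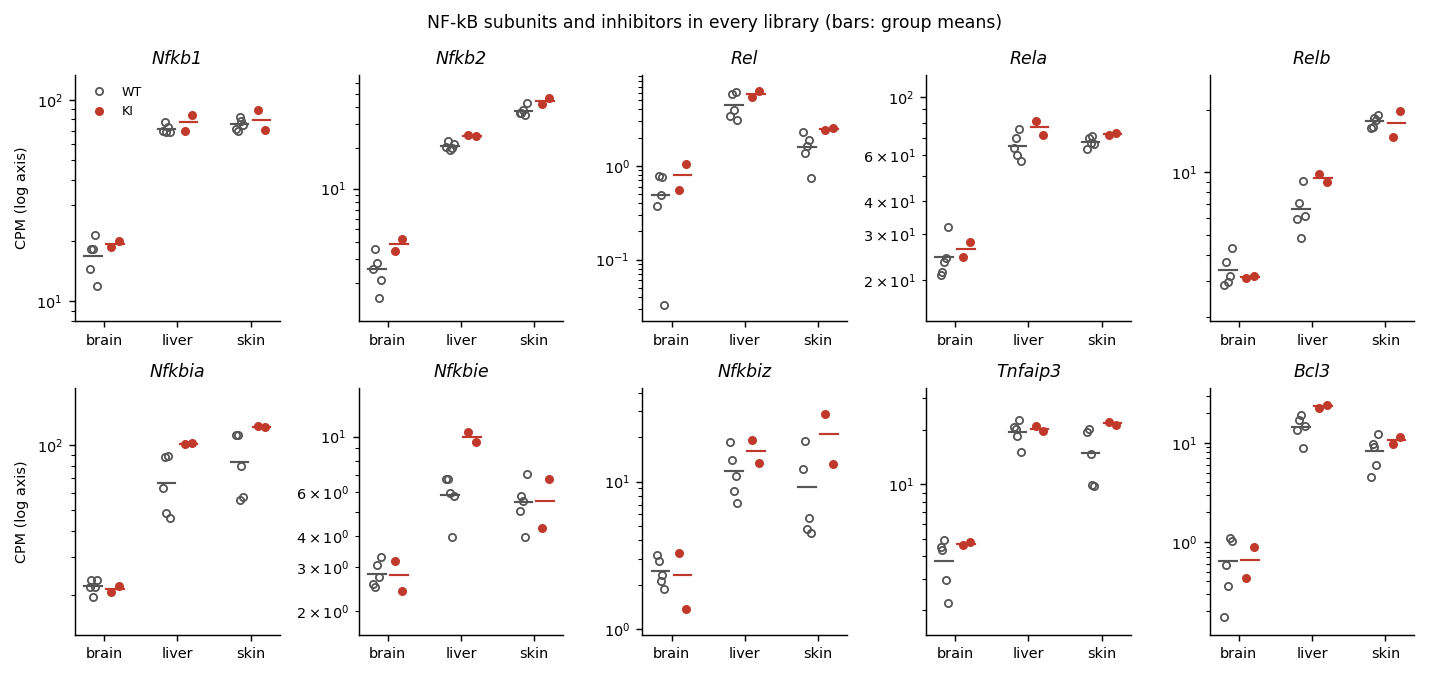
CPM on a log axis (vertical) of each gene in each of the 21 libraries, by tissue (horizontal), with open points for WT, filled points for KI and a bar at each group mean. The brain is lowest for every gene, and in the liver both KI points of Nfkb2, Nfkbia, Nfkbie and Bcl3 lie above all 5 WT points.

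In the liver, the KI mice were then compared with the WT mice. All 10 genes had a log2 fold change above 0 (46.8% of all 14966 genes did), with a median of 0.42 against -0.02 over all genes. None of the 10 reached an adjusted p under 0.1 in edgeR, where 3.89% of all genes were called higher and 1.68% lower. Before adjustment, 4 of the 10 had a p under 0.05 and were higher (9.49% of all genes), Nfkb2, Nfkbia, Nfkbie and Bcl3, and 0 were lower (8.41%). The same 4 were the ones whose KI libraries both lay above all WT libraries (13.0% of all genes), and 0 had both below (11.3%).

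Nfkbie, the gene of IκBε, stood at 10.5 and 9.51 CPM in the KI livers and at 6.75, 6.75, 5.92, 3.95 and 5.77 CPM in those of WT 1 to 5. Both KI values were clear of the WT range. The log2 fold change was 0.77 (SE 0.22, edgeR adjusted p = 0.103, from 0.0276 to 0.416 over the alternatives). Bcl3 stood at 22.6 and 23.9 CPM in the KI livers and at 13.5, 16.9, 19.1, 8.83 and 14.7 CPM in the WT livers, again without overlap, with a log2 fold change of 0.67 (SE 0.24, edgeR adjusted p = 0.189, from 0.0837 to 0.733). Nfkbia, the gene of IκBα, was at 102 CPM in both KI livers and at 62.9, 87.8, 48.2, 89.5 and 45.9 CPM in the WT livers. Its WT values fell into a higher pair (WT 2 and WT 4) and 3 lower libraries, the KI values lay above both, and the log2 fold change was 0.61 (SE 0.25, edgeR adjusted p = 0.257).

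Among the subunits in the liver, Nfkb2 was at 24.9 and 24.4 CPM in the KI mice and at 20.3, 22.4, 19.3, 20.0 and 21.3 CPM in the WT mice. The difference was small, 0.26 on the log2 scale (SE 0.11, edgeR adjusted p = 0.264), in a gene with little spread. Relb was at 9.84 and 9.03 CPM in the KI livers and at 5.94, 7.11, 4.82, 9.05 and 6.15 CPM in the WT livers, where WT 4 reached the level of KI 2 (log2 fold change 0.51, SE 0.23, edgeR adjusted p = 0.290). Rel (0.38, SE 0.30), Rela (0.23, SE 0.12) and Nfkb1 (0.11, SE 0.10) overlapped between the groups. So did the inhibitors Nfkbiz (0.45, SE 0.33) and Tnfaip3 (0.06, SE 0.16).

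The liver calls depended on the test. DESeq2 called 2 of the 10 genes higher, Nfkbie and Bcl3 (5.78% of all genes higher, 4.37% lower), and edgeR with the Fos and Egr1 level as a covariate called 1 higher, Nfkbie (3.78% of all genes). Without the liver of WT 4, edgeR called 3 higher, Relb (0.65), Nfkbie (0.66) and Bcl3 (0.54), with 5.28% of all genes. WT 4 had the lowest Nfkbie and Bcl3 of the WT livers and the highest Relb.

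The newborn liver holds blood and immune cells in number, as a site of blood formation. Sums of macrophage, neutrophil and B cell markers were higher in the KI livers, and that of erythroid markers was not. The summed level of 9 markers of microglia and macrophages was 1654 and 1945 CPM in the KI livers and 1048 to 1479 CPM in the WT livers, with 5 of the 9 called higher in edgeR. For 8 neutrophil markers the sums were 8966 and 10548 CPM against 5614 to 7352 CPM, with 3 called higher. For 6 B cell markers they were 156 and 157 CPM against 88.0 to 122 CPM, with 3 called higher. For 6 erythroid markers they were 1526 and 1676 CPM against 1673 to 2414 CPM. In all brain and skin libraries 2 of the 6, the globin genes Hbb-b1 and Hba-a1, were at 0. The erythroid sum of the liver was not split by gene. Of the 4 erythroid markers tested, edgeR called 0 and DESeq2 called 1 lower (2 lower at an unadjusted p under 0.05 in edgeR). The hepatocyte sum was 186229 and 190739 CPM in the KI livers against 192668 to 237281 CPM in the WT livers, with none of 7 markers called by edgeR and 1 called lower by DESeq2 (1 lower at an unadjusted p under 0.05 in edgeR). Of the other lists, the sums of mast cell markers (7.88 and 13.7 against 4.92 to 7.69 CPM, 2 of 4 tested called), adipocyte markers (279 and 285 against 94.5 to 130 CPM, 1 of 2 tested called) and T cell markers (4.09 and 4.65 against 2.24 to 3.58 CPM, 0 of 3 tested called by edgeR or DESeq2 and 1 at an unadjusted p under 0.05) also lay above those of all WT livers. Of 5 neuron markers tested in the liver, 1 was called higher and 1 lower. No marker of these lists, the neuron list aside, was at 0 in all liver libraries. The part of any of these cells in the levels of Nfkbie, Bcl3, Nfkbia and Nfkb2 was not tested.

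**Figure D3:**
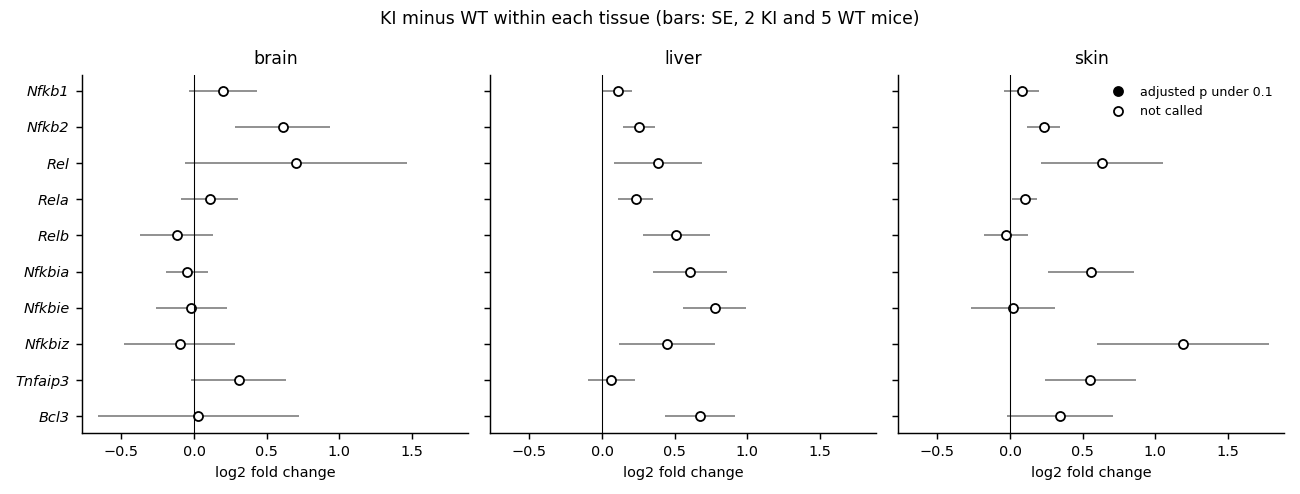
Log2 fold change of KI against WT (horizontal axis) for each gene (vertical axis) in each of the 3 tissues, with SE as bars, for 2 KI and 5 WT mice. All points are open, since no gene reached an adjusted p under 0.1 in edgeR, and all 10 lie right of 0 in the liver.

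In the skin, 9 of the 10 genes had a log2 fold change above 0 (43.3% of all 16163 genes did), with a median of 0.29 against -0.03 over all genes. None was called by edgeR (0.0247% of all genes were called higher, 0 lower) or by DESeq2 (0.634% and 0.0727%), none had an unadjusted p under 0.05 in edgeR (2.89% of all genes were higher and 1.68% lower at that level), and every adjusted p was 0.999. Both KI libraries lay above all WT libraries for 4 of the 10, Rel, Rela, Nfkbia and Tnfaip3 (4.91% of all genes), and below them for 0 (4.84%). The sum of 9 macrophage markers was also higher in the KI skin (563 and 772 CPM, against 372 to 510 CPM in the WT skin), with none of the 8 tested called by edgeR, 4 called higher by DESeq2 and 6 higher at an unadjusted p under 0.05 in edgeR, and its part in these values was not tested.

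Nfkbiz, the gene of IκBζ, which drives secondary response genes in keratinocytes and macrophages, had the widest difference in the skin. It stood at 28.7 CPM in KI 1 and 13.2 CPM in KI 2, and at 12.1, 18.8, 4.77, 5.67 and 4.48 CPM in WT 1 to 5. WT 2 lay above KI 2, so the groups overlapped, and the log2 fold change was 1.19 (SE 0.59). It was 0.57 without KI 1 and 1.65 without WT 2. Nfkbia was at 123 and 121 CPM in the KI mice and at 112, 111, 55.4, 80.0 and 57.4 CPM in the WT mice (log2 fold change 0.56, SE 0.29). Tnfaip3 was at 22.2 and 21.5 CPM in the KI mice and at 19.6, 20.4, 14.7, 9.95 and 9.85 CPM in the WT mice (0.55, SE 0.31). For both genes the KI values lay just above WT 1 and WT 2 and far above the remaining WT mice.

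The subunits differed less in the skin. Rela was at 72.0 and 72.7 CPM in the KI mice and at 63.6, 69.9, 66.6, 71.3 and 66.2 CPM in the WT mice, a narrow separation with a log2 fold change of 0.10 (SE 0.09). Rel, counted at 24 to 87 reads per skin library, was at 2.39 and 2.53 CPM against 2.27, 1.37, 1.63, 1.90 and 0.736 CPM (0.63, SE 0.42). Nfkb2 (0.23, SE 0.11), Nfkb1 (0.08, SE 0.12) and Relb (-0.03, SE 0.15) overlapped between the groups, as did the inhibitors Bcl3 (0.34, SE 0.37) and Nfkbie (0.02, SE 0.29).

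Fos and Egr1, immediate early genes that rise within minutes of handling or injury of a tissue, differed widely among the skin libraries and set apart the same libraries as these inhibitors. Fos stood at 538 and 224 CPM in the KI skin and at 360, 372, 66.9, 60.9 and 16.5 CPM in the WT skin. Egr1 stood at 582 and 241 CPM in the KI skin and at 226, 332, 52.6, 120.0 and 33.3 CPM in the WT skin. KI 1, KI 2, WT 1 and WT 2 thus held more of both than WT 3, WT 4 and WT 5, and the same 4 libraries held the highest Nfkbiz, Nfkbia and Tnfaip3. Neither Fos (1.12, SE 1.03) nor Egr1 (1.43, SE 0.79) was called between KI and WT skin (edgeR adjusted p = 0.999 for both). All 15 genes of an immediate early list had a log2 fold change above 0 in the skin (43.3% of all genes did), with a median of 0.96. Of the 15, 0 were called by edgeR or DESeq2, and 2 were higher at an unadjusted p under 0.05 in edgeR (2.89% of all genes).

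The Fos and Egr1 level was then entered as a score, the mean of their log2 CPM in a library, beside the genotype. In the skin, the score ranged from 4.76 in WT 5 to 9.33 in KI 1. At given genotype, Nfkbiz differed by 0.55 on the log2 scale per unit of score (SE 0.09, edgeR unadjusted p = 6.29e-04, adjusted p = 0.678), Nfkbia by 0.26 (SE 0.05, edgeR unadjusted p = 0.00211, adjusted p = 0.984) and Tnfaip3 by 0.25 (SE 0.07, edgeR unadjusted p = 0.0130, adjusted p = 0.984). These were the 3 of 10 genes with an unadjusted p under 0.05, all with a positive slope (2.51% of all genes, against 1.54% with a negative one), and none passed the adjusted level (0.00619% of all genes did). With the score in the fit, the KI against WT value of Nfkbiz in the skin went from 1.19 to 0.33, that of Nfkbia from 0.56 to 0.15 and that of Tnfaip3 from 0.55 to 0.16. The score was higher in the KI skin on average, and with 7 libraries genotype and score can be separated only in part.

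**Figure D4:**
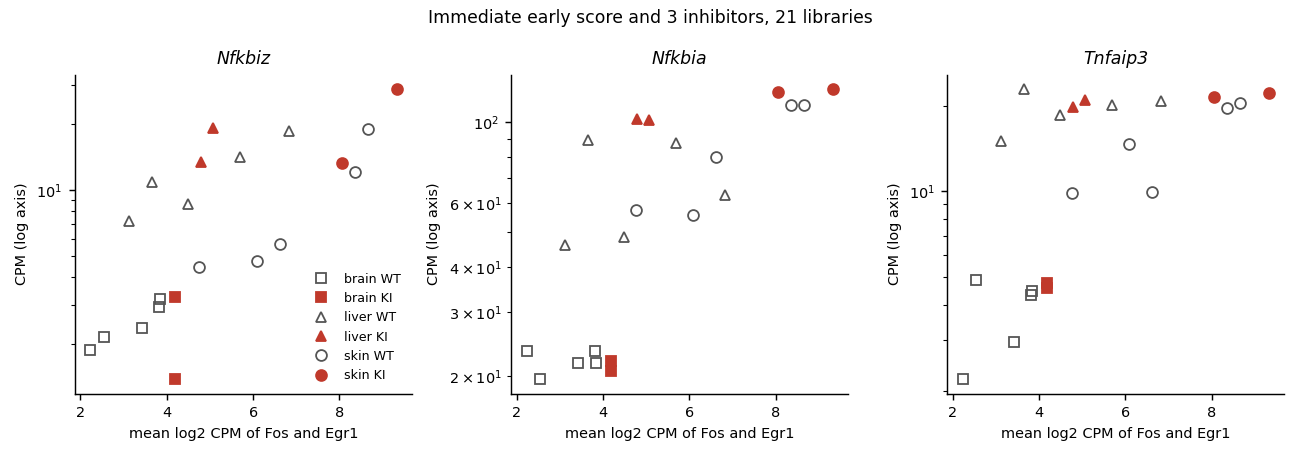
CPM on a log axis (vertical) of Nfkbiz, Nfkbia and Tnfaip3 against the mean log2 CPM of Fos and Egr1 (horizontal) in the 21 libraries, with squares for brain, triangles for liver, circles for skin, open for WT and filled for KI. In the skin the 4 libraries with a score above 8 hold the highest level of each gene.

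In the liver the score did not follow the genotype. It was 5.07 and 4.79 in the KI livers and 6.82, 5.70, 4.49, 3.66 and 3.12 in those of WT 1 to 5, so that the KI mice lay inside the WT range. Nfkbiz again had a positive slope, 0.33 (SE 0.08, edgeR unadjusted p = 0.00267, adjusted p = 0.729), and was the 1 gene of 10 with an unadjusted p under 0.05 (3.47% of all genes with a positive and 3.20% with a negative slope), and none passed the adjusted level (0.0134% of all genes did). The slopes of Nfkbia (0.06, SE 0.11) and Tnfaip3 (0.06, SE 0.06) were near 0 in the liver. The KI against WT values of Nfkbie and Bcl3 in the liver were 0.76 and 0.67 with the score in the fit, close to the values without it.

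In the skin, Nfkb2, Relb, Nfkbie and Bcl3 followed another order. Each had its highest pair of values in KI 2 and WT 5, the libraries with the least keratinocyte RNA. Nfkbie was at 6.77 CPM in KI 2 and 7.09 CPM in WT 5, against 3.95 CPM in WT 4 and 4.31 CPM in KI 1, which had the highest keratinocyte sums (14680 and 12090 CPM). Bcl3 was at 11.5 CPM in KI 2 and 12.4 CPM in WT 5 and at 4.49 to 9.76 CPM in the other 5 libraries. The pair of genes for p52 and RelB varied less, Nfkb2 between 34.9 and 46.4 CPM and Relb between 14.8 and 19.8 CPM. Beyond KI 2 and WT 5, Nfkb2, Relb and Bcl3 did not follow the order of the keratinocyte sums. Nfkb2 was at 41.9 CPM in KI 1, Relb at 18.0 CPM in WT 4, and Bcl3 was lowest in WT 1 (4.49 CPM). These 4 genes were singled out after their values were seen, and the part of skin composition in them was not tested.

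**Figure D5:**
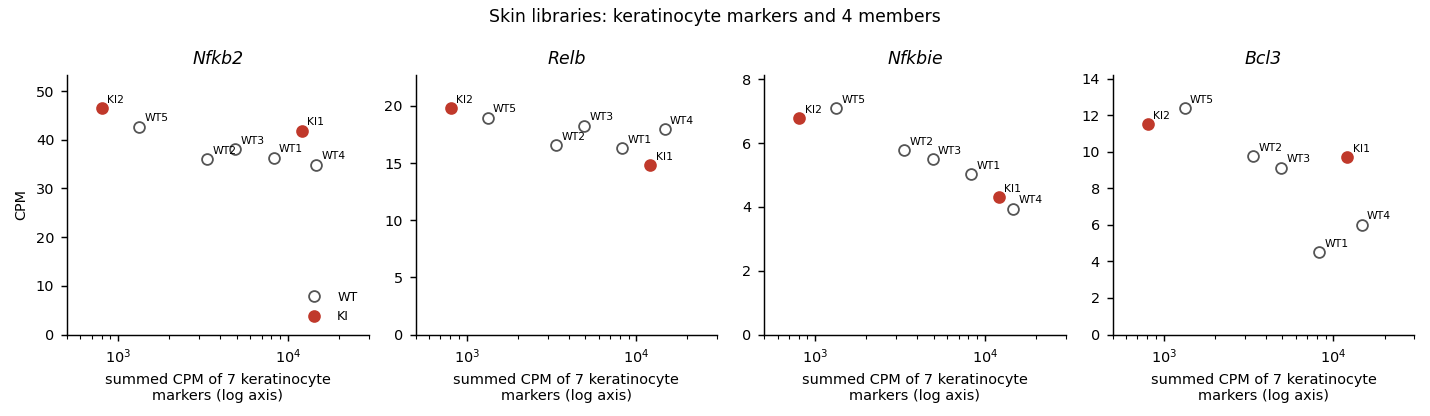
CPM (vertical) of Nfkb2, Relb, Nfkbie and Bcl3 against the summed CPM of 7 keratinocyte markers on a log axis (horizontal) in the 7 skin libraries, open for WT and filled for KI. KI 2 and WT 5, at the left of each panel, hold the highest pair of values of each gene.

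In the brain, 6 of the 10 genes had a log2 fold change above 0 (47.2% of all 16322 genes did), with a median of 0.07 against -0.02 over all genes. None was called by edgeR, where 0% of all genes were, or by DESeq2 (0.567% of all genes higher, 3.72% lower), and none had an unadjusted p under 0.05 in edgeR (2.80% of all genes were higher and 7.81% lower at that level). Without the brain of WT 5, edgeR called 4.14% of all genes higher and 6.32% lower, and still 0 of the 10. No gene of the 10 had both KI libraries above all WT libraries (11.2% of all genes) or below them (15.8%). Nfkb2 came nearest, at 3.48 and 4.27 CPM in the KI brains and 2.56, 3.59, 2.84, 1.56 and 2.13 CPM in the WT brains, where WT 2 lay above KI 1 (0.61, SE 0.33, edgeR adjusted p = 0.567). Rel was at 0.549 and 1.05 CPM in the KI brains, within or above the WT range of 0.0328 to 0.772 CPM (0.70, SE 0.77), and at 1 to 44 reads per brain library its change was not detectable at this depth. Nfkbia, at 20.6 and 22.0 CPM against 19.6 to 23.5 CPM, differed by -0.05 (SE 0.14). The neuron sum was 6131 and 6677 CPM in the KI brains against 6755 to 7639 CPM in the WT brains. Of its 7 markers, 0 were called by edgeR or DESeq2. Endothelium markers summed to 155 and 157 CPM against 79.8 to 149 CPM (0 of 5 called). Keratinocyte and skeletal muscle sums lay below all WT brains, with 1 marker of each called lower by DESeq2. The T cell sum lay above, and the others overlapped. The part of brain composition was not tested. The score of Fos and Egr1 was highest in the KI brains (both 4.18, against 2.23 to 3.83 in the WT brains), so that score and genotype cannot be told apart there. No gene of the 10 was called for the score (edgeR adjusted p from 0.563 to 0.935), and none had an unadjusted p under 0.05 (1.62% of all genes with a positive and 5.54% with a negative slope).

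The difference of the KI effect between tissues was tested itself, in a fit of all 21 libraries. Of the 10 genes, 0 were called in edgeR for liver minus brain (2.81% of all 18062 genes were), for skin minus brain (0%) and for skin minus liver (0.0997%). At an unadjusted p under 0.05 the counts were also 0 (15.1%, 7.41% and 5.54% of all genes, in the same order). DESeq2 also called 0. The widest difference was 1.23 for Nfkbiz in skin minus brain (SE 0.74, edgeR adjusted p = 0.764). In skin minus liver it was 0.78, also for Nfkbiz (SE 0.72, edgeR adjusted p = 1.00), and in liver minus brain 0.69 for Nfkbie (SE 0.38, edgeR adjusted p = 0.403). The higher values seen in the liver were therefore not shown to differ from those in the other tissues.

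Other genes of the pathway were followed in lists, which were chosen with earlier results of these data known. Of 21 receptors and adaptors, 3 were called higher in the KI liver and 0 lower by edgeR (3.89% and 1.68% of all genes). In the brain and the skin, 0 were called by edgeR or DESeq2. In each of these, 1 was higher at an unadjusted p under 0.05 in edgeR (2.80% and 2.89% of all genes). Tlr2, a receptor of bacterial lipoproteins, was at 24.3 ± 6.17 CPM in KI (SD, n = 2) and 10.8 ± 3.17 CPM in WT livers (n = 5), with a log2 fold change of 1.16 (SE 0.27, edgeR adjusted p = 0.0567). Myd88, the adaptor of Toll-like and interleukin-1 receptors, rose by 0.50 (SE 0.10, edgeR adjusted p = 0.0368), and Tnfrsf1a, the main TNF receptor, by 0.45 (SE 0.10, edgeR adjusted p = 0.0604). Of 17 kinases and ubiquitin ligases, which carry the signal from receptor to IκB, 0 were called in any tissue by edgeR or DESeq2. Unadjusted p in edgeR was under 0.05 for 2 higher and 1 lower in the liver (9.49% and 8.41% of all genes). In the skin it was so for 2 higher (2.89% of all genes). Of 14 other inhibitors, of which 13 could be tested, edgeR called 0 in any tissue. At an unadjusted p under 0.05 in edgeR, 3 were higher, all in the liver (9.49% of all genes). DESeq2 called 1 higher, also in the liver (5.78% of all genes).

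Of 25 target genes of NF-κB, 22 could be tested in the liver, and edgeR called 4 higher and 0 lower (3.89% and 1.68% of all genes), with a median of 0.53 against -0.02 over all genes. Sele, the endothelial adhesion molecule E-selectin, was at 6.83 ± 1.50 CPM in KI and 0.555 ± 0.333 CPM in WT livers, a log2 fold change of 3.61 (SE 0.51, edgeR adjusted p = 0.00952). Il6 was at 2.14 ± 1.11 against 0.282 ± 0.201 CPM (2.89, SE 0.65, edgeR adjusted p = 0.0525), and the neutrophil chemokine gene Cxcl1 at 15.2 ± 3.09 against 2.73 ± 1.46 CPM (2.47, SE 0.42, edgeR adjusted p = 0.0199). Ccl5, the other gene called, was named after its values were seen (1.45, SE 0.32, edgeR adjusted p = 0.0510). In the skin 23 of the list could be tested and edgeR called 0. At an unadjusted p under 0.05 in edgeR, 5 were higher (2.89% of all genes). DESeq2 called 2 higher (0.634% of all genes higher, 0.0727% lower). In the brain 15 could be tested and 0 were called by edgeR or DESeq2. All of these targets also answer to other factors. Since the list was chosen with earlier results of these data known, its counts are a description and not independent support.

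The genes most like each member over the 21 libraries were found by the root mean square (RMS) difference in log2 CPM after centring each gene, among 15650 genes; this is a description and tissue differences make up most of it. Nfkbiz was nearest to Dusp1, an immediate early phosphatase gene (RMS 0.45), and then to Tnfaip3 (0.51) and Nfkbia (0.55), so that 2 of its 3 nearest genes were members. No other member had a member among its nearest 3. Nfkbia was nearest to Irf2bp2 (0.21), Btg1 and Fam43a, and Tnfaip3 to Spty2d1 (0.26), Numb and Irf2. Of the subunits, the 4 other than Rel lay closer to their nearest genes than Rel and Bcl3 did to theirs. Nfkb1 was nearest to Sp1 (0.15), Arnt and Slk, Rela to Glmp (0.15), Nr1h2 and Tm9sf1, Nfkb2 to Myadm (0.23), Itpripl2 and Svil, and Relb to Serpinb6a (0.22), Slc12a4 and Mdfi. Rel was nearest to the macrophage receptor gene Mertk (0.40), Klf3 and Tlr7, Nfkbie to Lta4h (0.26), Efhd2 and Zc3h7a, and Bcl3 to Dok2 (0.38), Dok1 and Psmb8.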

How the data were processed

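The 21 libraries came from 3 tissues of 2 KI and 5 WT newborn mice. They were made with a TruSeq kit that does not mark strand, and TopHat2 placed the trimmed reads on mm9. The authors deposited raw counts per gene symbol, not normalized, 1 file per library; the submitters' processing notes also name HTSeq and DESeq, and the annotation is not given in the sources used here. The 5 summary lines of each file, which name no gene, were left out of library sizes and tests; 80.5% to 87.6% of the reads placed once were counted on genes. Groups and replicate numbers came from the sample titles and genotype labels.

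Each fit used edgeR 4.0.16 under R 4.3.3 (filterByExpr, scaling by the trimmed mean of M values or TMM, quasi-likelihood F test), with a Benjamini-Hochberg adjusted p under 0.1 over all genes tested as the level for a call. KI and WT were compared within each tissue (7 libraries), the tissues in the 15 WT libraries, and the KI effect between tissues in all 21. CPM used the TMM scale of each tissue's own fit, with the tissues set to each other by TMM over all 21 libraries, and CPM per kb divided this by the union of exons of each gene in the mm9 annotation (NCBIM37, gencode vM1). The Fos and Egr1 score was the mean of their log2 CPM with a prior count of 2, entered beside genotype.

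A genotype and number shared across tissues was read as 1 mouse, since the labels number them alike. Their deviations from the group means correlated across genes with r from -0.00455 to 0.174, and the mouse as a block was an alternative. Numbers shared by KI and WT mice mark no stated litter or batch.

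The genes named were the 10 members, Fos, Egr1, Jak1, up to 3 called genes per list and tissue with the largest change, and the 3 genes most like each member among genes with a mean of at least 1 CPM. The members and all lists were chosen with earlier results of these data known. Alternatives were DESeq2 1.42.0 (size factors, and its Wald test), total counts, no filter beyond 1 count, an adjusted p under 0.05, all libraries in 1 fit, blocks, the score as covariate, Fos or Egr1 alone, and each mouse left out. The edgeR step was tested on simulated counts with 200 changed genes. Matching and figures used Python 3.11.15 with pandas 2.3.3, numpy 2.4.6 and matplotlib 3.10.9.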

Additional observations from a re-analysis of the deposited data

How the results depend on the processing

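The 10 calls of liver and of skin against brain held in direction under every alternative, and in number under all but total counts (8 for liver against brain). No member was called between KI and WT in the brain or the skin, for the difference between tissues, or for the score in the liver or the skin, under any alternative run. In the liver, members called between KI and WT numbered 0 with edgeR, 2 with the DESeq2 Wald test, 1 with the Fos and Egr1 covariate and 0 to 3 with 1 mouse left out (3 without WT 4). For the score in the brain, they numbered 1 with Fos alone (Rela, -0.37, with 12.6% of all genes lower) and 0 to 2 with 1 mouse left out, where without WT 3 Rela (-0.37) and Tnfaip3 (0.62) were called (17.9% of all genes lower, 19.3% higher). With the replicate number as a block, a pairing that rests on the number alone (r of same-numbered KI and WT libraries from -0.0952 to 0.198), the KI against WT liver gave 1 call, Bcl3 (3.15% of all genes higher). Under the block, log2 values changed sign for Nfkbie in the brain (0.13), for Nfkbiz (-0.018) and Tnfaip3 (-0.0077) in the liver and for Relb in the skin (0.061). The mouse block changed no calls but those of Nfkbiz and Tnfaip3 in skin against liver.

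Other changes of sign were in values not called in the main test. With the covariate they were Rel (-0.22), Relb (0.029) and Nfkbie (0.21) in the brain and Relb (0.11) in the skin, and with all libraries in 1 fit Nfkbia (0.036) and Nfkbie (0.066) in the brain. With Fos alone the slope of Nfkbia in the brain was -0.037. With total counts, skin against liver was 0.60 for Nfkbie, 0.35 for Nfkbiz and 0.32 for Tnfaip3. Leaving out 1 mouse gave ranges across 0 for KI against WT in the brain of Nfkbia (-0.093 to 0.016), Nfkbie (-0.21 to 0.16), Nfkbiz (-0.83 to 0.39) and Bcl3 (-0.56 to 0.47), in the liver of Nfkb1 (-0.031 to 0.25) and Tnfaip3 (-0.0044 to 0.13), and in the skin of Nfkb1 (-0.049 to 0.23), Relb (-0.26 to 0.21) and Nfkbie (-0.35 to 0.35). The same held for the score slopes of Nfkbia (-0.037 to 0.17) and Tnfaip3 (-0.12 to 0.62) in the brain and of Nfkbia (-0.057 to 0.19) and Tnfaip3 (-0.020 to 0.13) in the liver. Leaving out a KI mouse leaves 1, which is then assumed to vary like the WT mice. The causes of these changes were not tested. Depth limits Rel and Bcl3 in the brain most, at 1 to 45 counts per library, and the KI spread rests on 2 mice.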
